A study of Mus musculus with 8 samples.

Results

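The 10 genes described here encode parts of the transforming growth factor beta (TGF-beta) pathway: the ligands Tgfb1 and Tgfb3, the receptors Tgfbr1, Tgfbr2 and Tgfbr3, the receptor-activated Smads Smad2 and Smad3, the inhibitory Smad7, and the Smad-binding repressors Ski and Skil. They were chosen by symbol, as probe sets annotated with exactly 1 of these names, and all 10 were found among the 19938 genes measured, each read by 1 probe set. Gene expression was measured on 8 Affymetrix whole-transcript arrays of mouse T helper cells. The cells were Th1, which make interferon-gamma, or Th17, which make interleukin-17. Mice of genotype Tet2(f/f) stood as wild-type and mice of genotype CD2(Cre)Tet2(f/f) as Tet2-deficient, with 2 arrays in each of the 4 groups. Both genotypes carry the floxed Tet2 allele, and the labels give neither a group with CD2(Cre) alone nor the age or sex of the mice. The CD2 promoter is known to be active across lymphocytes, so Cre is not limited to T helper cells. Tet2 oxidizes methylated cytosine in DNA, and the series compares the subsets with and without it.

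TGF-beta is secreted in a latent form and, once released, binds the type II receptor (Tgfbr2), which recruits and phosphorylates the type I receptor (Tgfbr1). Betaglycan (Tgfbr3) is a coreceptor that presents the ligand. The type I receptor phosphorylates Smad2 and Smad3, which enter the nucleus with Smad4, while Smad7 blocks the receptor and Ski and SnoN (encoded by Skil) hold Smad target genes silent. Smad7 and Skil are themselves known targets of the pathway, which makes them feedback genes. In T helper cells TGF-beta is known to favour Th17 and regulatory T cell differentiation and to restrain Th1 differentiation. The labels do not state the cytokines used to make either subset.

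Values are log2 probe-set signals, on which a difference of 1 is a 2-fold difference, and signals of different probe sets are not compared with each other. The arrays of a group correlated at 0.990 to 0.994 across genes, which are not independent replicates, and arrays of different groups at 0.977 to 0.995. The median signal lay between 6.53 and 6.61 on every array. Signals of a bulk sample cannot tell fewer cells of a type from less RNA per cell. T cell markers had similar summed signals in all groups (log2 of the summed signal 13.5 to 13.8), with Cd3e and Cd4 high throughout. The 5 Th1 markers summed to 12.7 to 13.1 in Th1 and 10.7 to 11.0 in Th17 cells. The 5 measured Th17 markers summed to 8.56 to 8.79 in Th1 and 11.8 to 12.2 in Th17 cells, as the labels say. Within Th1 cells the Th1 sum was 13.0 to 13.1 in wild-type and 12.7 in Tet2-deficient cells. That sum followed Ifng, as 3 of the 5 markers had means above wild-type and 2 below, with a list median of 0.01. Ifng, the 1 gene of 19938 called for Tet2 deficiency in Th1 cells, differed there by -1.39 (adjusted p = 0.00438, limma). Xist, which is made from the silenced X chromosome of female cells, lay between 4.80 and 5.07 on the Th1 arrays but at 5.15 and 10.1 on the wild-type Th17 arrays and at 8.60 and 11.3 on the Tet2-deficient ones, so the share of female RNA differs between the subsets and among the Th17 arrays. Tet2 itself was read at 8.02 to 8.14 (wild-type) and 7.98 to 8.12 (Tet2-deficient) on the Th1 arrays, which overlap, and at 8.49 to 8.51 and 8.34 to 8.39 on the Th17 arrays, which do not; neither difference passed (-0.03 and -0.14, adjusted p = 0.982 and 0.99996, limma). The labels do not name the deleted exons, so whether this probe set reads them is not known here.

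The sequences upstream of 3 genes that were higher in wild-type Th17 cells and of Tgfb1, which was not, are shown because Tet2 acts mostly on methylated CpG dinucleotides. Each line holds the 250 bases before the annotated start, 5′ to 3′ on the gene's strand, from RefSeq (GRCm38.p6), with every CG in capitals; RefSeq promoters were matched for 5 of the 10 genes (Tgfb1, Tgfbr1, Tgfbr2, Smad3 and Ski).
Smad3 (chr9:63757995-63758244, minus strand): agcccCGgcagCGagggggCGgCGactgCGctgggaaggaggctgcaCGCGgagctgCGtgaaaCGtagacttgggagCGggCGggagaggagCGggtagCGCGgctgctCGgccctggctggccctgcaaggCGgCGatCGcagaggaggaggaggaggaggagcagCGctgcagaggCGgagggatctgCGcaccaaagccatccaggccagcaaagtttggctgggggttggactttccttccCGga
Tgfbr1 (chr4:47352972-47353221, plus strand): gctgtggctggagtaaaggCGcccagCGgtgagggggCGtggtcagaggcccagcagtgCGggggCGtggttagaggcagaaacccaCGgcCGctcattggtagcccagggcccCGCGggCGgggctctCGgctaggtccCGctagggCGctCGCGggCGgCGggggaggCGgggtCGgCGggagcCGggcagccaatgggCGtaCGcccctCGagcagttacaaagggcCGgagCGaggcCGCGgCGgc
Tgfbr2 (chr9:116175364-116175613, minus strand): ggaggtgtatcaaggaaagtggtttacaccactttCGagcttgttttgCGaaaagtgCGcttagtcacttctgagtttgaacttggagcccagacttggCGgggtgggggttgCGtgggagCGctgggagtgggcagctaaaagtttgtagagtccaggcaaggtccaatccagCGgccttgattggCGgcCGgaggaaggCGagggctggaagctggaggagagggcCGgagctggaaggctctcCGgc
Tgfb1 (chr7:25686752-25687001, plus strand): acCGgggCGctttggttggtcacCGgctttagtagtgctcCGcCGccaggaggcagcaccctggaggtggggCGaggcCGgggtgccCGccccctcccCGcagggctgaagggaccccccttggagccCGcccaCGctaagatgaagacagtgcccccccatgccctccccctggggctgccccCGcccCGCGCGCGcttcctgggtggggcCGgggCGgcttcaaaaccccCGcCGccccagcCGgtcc
The Smad3 window holds 22 CG, the Tgfbr1 window 29, the Tgfbr2 window 12 and the Tgfb1 window 21, against a median of 6 (quartiles 2 and 16) over all 32851 promoters of that length. The Ski window holds 53, and a second annotated Tgfbr1 start (window chr4:47385966-47386215) has 3. The Smad3, first Tgfbr1, Ski and Tgfb1 windows thus lie above the upper quartile, and the Tgfbr2 and second Tgfbr1 windows between the quartiles. Windows above the upper quartile stood before genes called higher in wild-type Th17 cells (Smad3 and Tgfbr1) and before genes not called (Tgfb1 and Ski). The Smad box CAGAC or its reverse complement GTCTG occurs once in the Tgfbr2 window and once before the second Tgfbr1 start, and in 42.2% of all promoters; the palindrome GTCTAGAC occurs in none of the 6 windows and in 0.167% of promoters. Methylation was not measured on these arrays.

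The clearest pattern was between the subsets. In wild-type cells 9 of the 10 genes had a higher mean signal in Th17 than in Th1 cells, and 6 passed the test (limma, Benjamini-Hochberg adjusted over 19938 genes, adjusted p under 0.05): Tgfb3, Tgfbr1, Tgfbr2, Tgfbr3, Smad2 and Smad3. Of all genes, 4.97% were called higher in wild-type Th17 cells and 3.44% lower, 8.4% in all. In Tet2-deficient cells 9 of 10 again had the higher mean in Th17 cells and 5 passed, Tgfb3, Tgfbr2, Tgfbr3, Smad3 and Smad7, against 6.32% of all genes called higher and 3.79% lower, 10.1% in all. No member was called lower in either genotype, 4 were called higher in both and 7 in at least 1. The median difference of the 10 genes was 0.56 (wild-type) and 0.51 (Tet2-deficient), against -0.03 for all genes in each. In each genotype 9 of the 10 genes lay higher in Th17 cells without overlap of the arrays, and in Tet2-deficient cells Tgfb1 lay lower without overlap. Of all genes 23.8% lay higher and 28.4% lower in wild-type and 25.8% higher and 31.7% lower in Tet2-deficient cells. On 8 of the 10 genes all 4 Th17 arrays lay above all 4 Th1 arrays, which held for 12.7% of all genes; the exceptions were Tgfb1 and Ski. Over all genes, the share of calls that were higher in Th17 cells was 59.1% (wild-type) and 62.5% (Tet2-deficient). It became 68.4% and 72.6% with each array centred on its median, and 51.7% and 55.5% with quantile normalization applied again. The direction of each of the 10 genes was the same under both. Shares of all genes, here and below, include genes of low signal. Each member but Tgfb3 lay at percentile 68.7 or higher on every array. With genes under the median level left out, 1569 genes were called in wild-type and 1905 in Tet2-deficient cells, a larger share of fewer genes. These calls included 5 and 6 members.

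**Figure D1:**
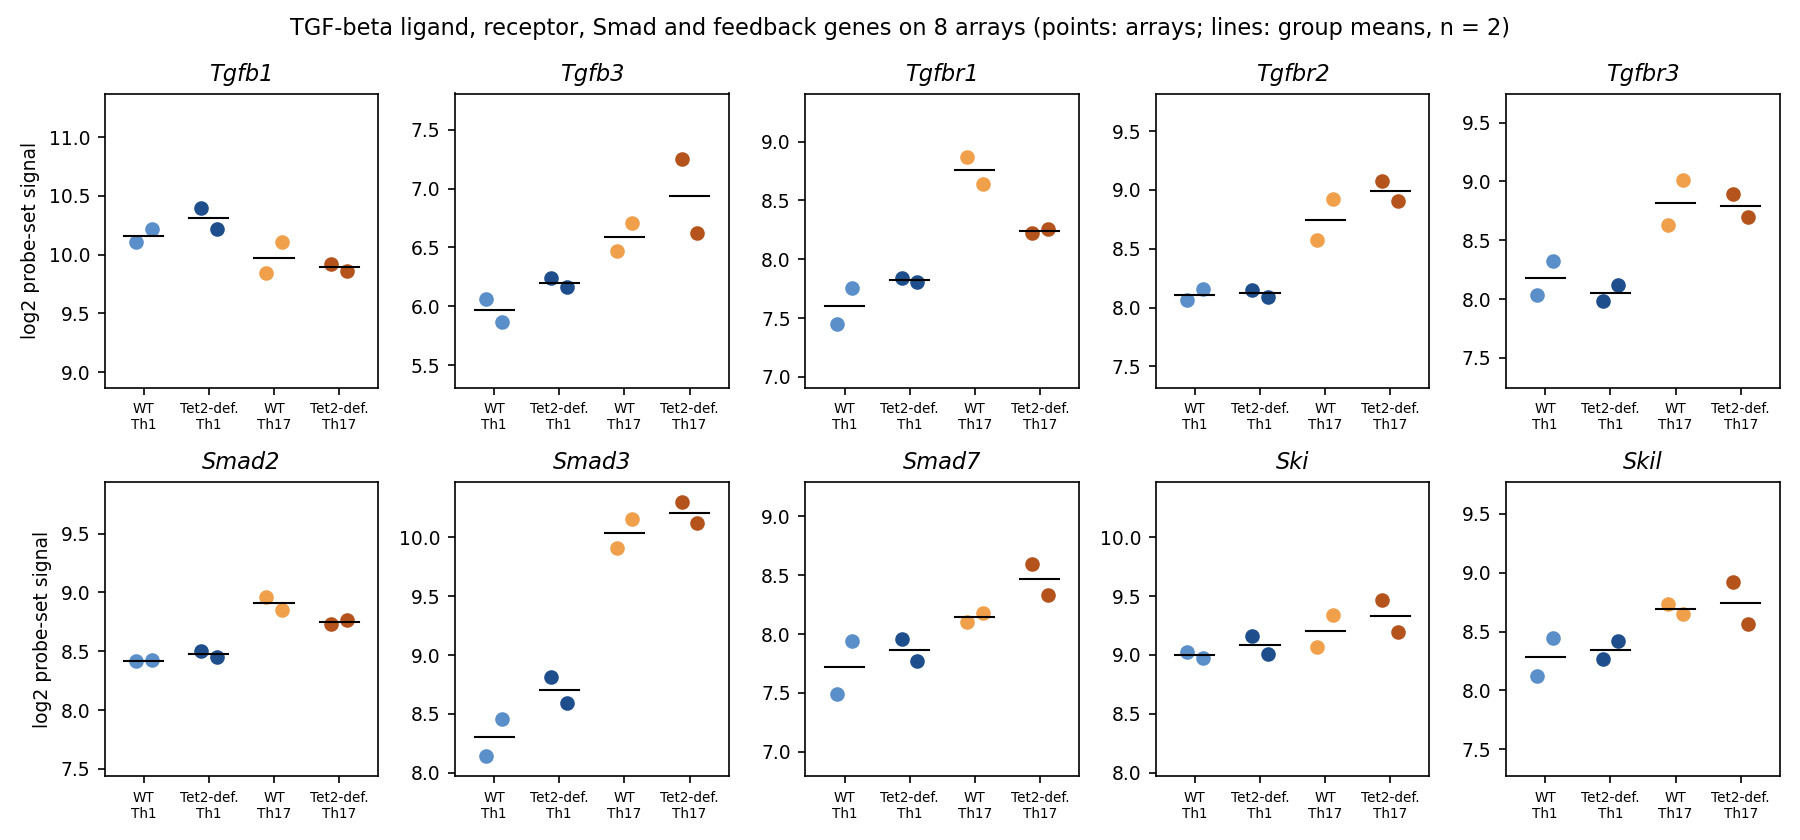
Log2 probe-set signal of the 10 genes (panels, each spanning 2.5 log2 units) by group, with 1 point per array and a line at the group mean (n = 2). On Smad3 the Th1 arrays sit between 8.14 and 8.82 and the Th17 arrays between 9.91 and 10.3, whereas on Tgfb1 and Ski the subsets overlap.

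Smad3, a receptor-activated Smad that binds DNA directly (gene ID 17127, chromosome 9, 63646766 to 63757994 in GRCm38.p6, probe set 10594404), differed most between the subsets among the 10. Its signal was 8.14, 8.45 on the wild-type Th1 arrays, 8.82, 8.59 on their Tet2-deficient counterparts, 9.91, 10.2 on the wild-type Th17 arrays, and 10.3, 10.1 on the Tet2-deficient Th17 arrays. The Th1 and Th17 arrays were more than 1 log2 unit apart at their closest. Smad3 was 3.33-fold higher in wild-type Th17 cells (log2 difference 1.73 ± 0.15 SE, n = 2 and 2, adjusted p = 1.81e-05, limma) and 2.84-fold higher in Tet2-deficient Th17 cells (1.51 ± 0.15, adjusted p = 4.88e-05, limma). Both calls held in every alternative run, with differences from 1.58 to 1.89 in wild-type and 1.39 to 1.62 in Tet2-deficient cells.

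Smad2, the other receptor-activated Smad (gene ID 17126, chromosome 18, probe set 10456764), moved less. Its signal was 8.41, 8.43 on the wild-type Th1 arrays, 8.50, 8.45 on their Tet2-deficient counterparts, 8.96, 8.85 on the wild-type Th17 arrays, and 8.73, 8.76 on the Tet2-deficient Th17 arrays. Replicates of Smad2 lay close together, and all Th17 arrays were above all Th1 arrays. It was 1.40-fold higher in wild-type Th17 cells (0.49 ± 0.11 SE, adjusted p = 0.0194, limma), and in Tet2-deficient cells the difference of 0.27 ± 0.11 did not pass (adjusted p = 0.152). Leaving out any of the 4 wild-type arrays ended this call: Th1 replicate 1 (adjusted p = 0.0653) or 2 (0.0504), Th17 replicate 1 (0.105) or 2 (0.0668). It also ended with the female share in the fit (0.0516) and in a fit on the wild-type arrays alone (0.0599), where the difference stayed at 0.49, and with quantile normalization applied again (0.0895), where the difference was 0.35.

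Among the receptors, Tgfbr1, the kinase that phosphorylates Smad2 and Smad3 (gene ID 21812, chromosome 4, 47353222 to 47414926, probe set 10504817), stood highest in wild-type Th17 cells. It read 7.45, 7.76 on the wild-type Th1 arrays, 7.84, 7.81 on their Tet2-deficient counterparts, 8.87, 8.64 on the wild-type Th17 arrays, and 8.22, 8.26 on the Tet2-deficient Th17 arrays. The groups of the subsets do not overlap, and the Tet2-deficient Th17 arrays fall between the wild-type Th17 arrays and all Th1 arrays. The subset difference was 2.22-fold in wild-type cells (1.15 ± 0.13 SE, adjusted p = 0.000188, limma) and held in every alternative, from 0.997 to 1.30. In Tet2-deficient cells it was 1.33-fold (0.41 ± 0.13) and did not pass (adjusted p = 0.0686, limma). That value passed without wild-type Th1 replicate 1 (0.043) or 2 (0.0427), with arrays centred (0.043), with low genes left out (0.0469) and in a fit on the 4 Tet2-deficient arrays (0.0357).

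Tgfbr2, the ligand-binding type II receptor (gene ID 21813, chromosome 9, 116087695 to 116175363, probe set 10597518), was higher in Th17 cells of both genotypes. Its signal was 8.06, 8.16 on the wild-type Th1 arrays, 8.15, 8.09 on their Tet2-deficient counterparts, 8.57, 8.92 on the wild-type Th17 arrays, and 9.08, 8.91 on the Tet2-deficient Th17 arrays. The 4 Th1 arrays lay close together, and the Th17 arrays spread more widely, with no overlap. The fold was 1.56 for wild-type cells (0.64 ± 0.14 SE, adjusted p = 0.0132, limma) and 1.83 in Tet2-deficient cells (0.87 ± 0.14, adjusted p = 0.0016, limma). Without Th1 replicate 1 the wild-type call was lost (adjusted p = 0.0684), as it was without Th17 replicate 2 of that genotype (0.14) and with all probe sets tested (0.0832), while the Tet2-deficient call held in every alternative.

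Tgfbr3, betaglycan (gene ID 21814, chromosome 5, 107106567 to 107289629, probe set 10532085), read 8.03, 8.32 on the wild-type Th1 arrays, 7.99, 8.12 on their Tet2-deficient counterparts, 8.63, 9.01 on the wild-type Th17 arrays, and 8.89, 8.70 on the Tet2-deficient Th17 arrays. The Th17 arrays were the higher ones in both genotypes without overlap. Tgfbr3 was 1.56-fold higher in wild-type (0.64 ± 0.15 SE, adjusted p = 0.0237, limma) and 1.67-fold higher in Tet2-deficient Th17 cells (0.74 ± 0.15, adjusted p = 0.00894, limma). Neither call held once the female share was in the fit (adjusted p = 0.0511 for wild-type, 0.0881 for Tet2-deficient cells), although the differences stayed at 0.64 and 0.75. In addition, the wild-type call did not hold in a fit on those arrays alone or with quantile normalization applied again (0.0538 each). It was also lost without wild-type Th1 replicate 1 (0.138) or wild-type Th17 replicate 2 (0.209), and the other call without Tet2-deficient Th1 replicate 1 (0.0809) or Tet2-deficient Th17 replicate 1 (0.104).

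Of the ligands, only Tgfb3 passed. Tgfb3 (gene ID 21809, chromosome 12, 86056743 to 86079041, probe set 10401673) encodes a TGF-beta isoform known to be made by Th17 cells. It read 6.06, 5.87 on the wild-type Th1 arrays, 6.24, 6.16 on their Tet2-deficient counterparts, 6.47, 6.71 on the wild-type Th17 arrays, and 7.25, 6.62 on the Tet2-deficient Th17 arrays. These are low signals, between percentile 31.8 and percentile 63.0 of the genes on an array, yet every Th17 array lay above every Th1 array. Tgfb3 was 1.54-fold higher in wild-type (0.62 ± 0.17 SE, adjusted p = 0.0461, limma) and 1.66-fold higher in Tet2-deficient Th17 cells (0.74 ± 0.17, adjusted p = 0.0188, limma). In wild-type cells the call was lost without Th1 replicate 1 (adjusted p = 0.0838) or 2 (0.162), wild-type Th17 replicate 1 (0.0678) or 2 (0.275), and Tet2-deficient Th1 replicate 1 or 2 (0.0641 each). The other call ended without Tet2-deficient Th1 replicate 1 (0.0823) or 2 (0.0981) and without Tet2-deficient Th17 replicate 1 (0.187), which holds the highest Tgfb3 signal and whose removal took the difference to 0.42.

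Tgfb1, the main TGF-beta isoform of lymphocytes (gene ID 21803, chromosome 7, 25687002 to 25705077, probe set 10551185), was the only one of the 10 with a lower mean in Th17 cells in both genotypes. Its signal was 10.1, 10.2 on the wild-type Th1 arrays, 10.4, 10.2 on their Tet2-deficient counterparts, 9.84, 10.1 on the wild-type Th17 arrays, and 9.92, 9.86 on the Tet2-deficient Th17 arrays. The wild-type groups overlap, and the Tet2-deficient groups do not. The differences of -0.19 ± 0.13 SE (adjusted p = 0.425, 95% interval -0.47 to 0.10) in wild-type and -0.42 ± 0.13 (adjusted p = 0.0664, -0.71 to -0.13) in Tet2-deficient cells did not pass. In Tet2-deficient cells Tgfb1 passed as lower in 3 alternatives: quantile normalization applied again (adjusted p = 0.0203), low genes left out (0.0442) and a fit on those 4 arrays (0.0461).

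**Figure D2:**
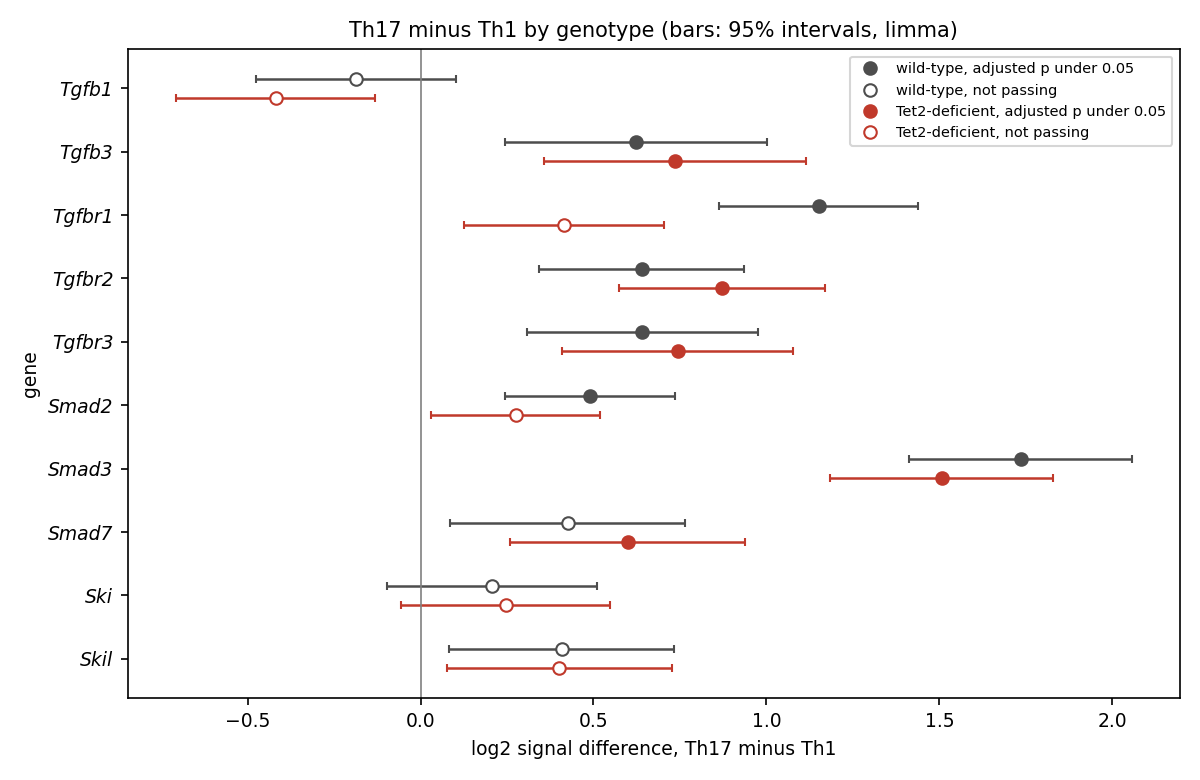
Log2 signal difference, Th17 minus Th1 (x axis), of each gene in wild-type (grey) and Tet2-deficient cells (red), with 95% intervals from limma; filled points passed an adjusted p under 0.05. Smad3 lies farthest to the right in both genotypes (1.73 and 1.51), and Tgfb1 alone lies left of 0.

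Of the feedback genes, Smad7, which recruits ubiquitin ligases to the receptor (gene ID 17131, chromosome 18, probe set 10456745), read 7.49, 7.94 on the wild-type Th1 arrays, 7.96, 7.77 on their Tet2-deficient counterparts, 8.10, 8.18 on the wild-type Th17 arrays, and 8.60, 8.33 on the Tet2-deficient Th17 arrays. Every Th17 array was above every Th1 array, with wild-type Th1 replicate 1 the lowest. The difference passed in Tet2-deficient cells, at 1.51-fold (0.60 ± 0.16 SE, adjusted p = 0.0304, limma), and not in wild-type cells (0.43 ± 0.16, adjusted p = 0.116), where it passed without wild-type Th1 replicate 2 (0.65, adjusted p = 0.0306). The Tet2-deficient call ended without Tet2-deficient Th1 replicate 1 (adjusted p = 0.0762) or 2 (0.167), without Tet2-deficient Th17 replicate 1 (0.242), with quantile normalization applied again (0.0817) and with the female share in the fit (0.094), where the difference was larger, at 0.72.

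Skil, which encodes SnoN (gene ID 20482, chromosome 3, 31095058 to 31122923, probe set 10491300), read 8.12, 8.44 on the wild-type Th1 arrays, 8.27, 8.42 on their Tet2-deficient counterparts, 8.73, 8.65 on the wild-type Th17 arrays, and 8.92, 8.57 on the Tet2-deficient Th17 arrays. The Th17 arrays were higher without overlap, but the differences of 0.41 ± 0.15 SE in wild-type (adjusted p = 0.115) and 0.40 ± 0.15 in Tet2-deficient cells (adjusted p = 0.116) did not pass. Ski, its relative (gene ID 20481, chromosome 4, 155154075 to 155222535, probe set 10519105), read 9.02, 8.97 on the wild-type Th1 arrays, 9.16, 9.01 on their Tet2-deficient counterparts, 9.07, 9.34 on the wild-type Th17 arrays, and 9.47, 9.20 on the Tet2-deficient Th17 arrays. The Th17 arrays were above the Th1 arrays within each genotype but not across genotypes, by 0.21 ± 0.14 (95% interval -0.10 to 0.51) and 0.25 ± 0.14 (-0.06 to 0.55), neither passing (adjusted p = 0.394 and 0.306, limma).

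The subset took up a median of 73.4% of the variance over the 8 arrays for these genes, from 48.1% for Ski to 94.4% for Smad3, against 31.2% over all genes. Replicate differences took up 40.7% for Ski and 27.8% for Skil. Group means ran in the same order for 6 genes (Tgfb3, Tgfbr2, Smad3, Smad7, Ski and Skil): highest in Tet2-deficient Th17, then wild-type Th17, Tet2-deficient Th1 and wild-type Th1 cells. Within a subset the neighbours in this order did not pass a test, and wild-type Th17 was not tested against Tet2-deficient Th1. For Tgfbr1, Smad2 and Tgfbr3 wild-type Th17 cells came first, and for Tgfb1 Tet2-deficient Th1 cells. Over the 8 arrays, which share the subset difference, Tgfb1 had a negative Pearson correlation with each of the other 9 genes (-0.74 to -0.33), and the 36 pairs among those 9 were all positive (0.46 to 0.97). These signs follow the subset difference: for deviations from the group means, 7 of the 9 correlations with Tgfb1 and 25 of the 36 others were positive.

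The genes whose pattern over the 8 arrays was most like Smad3 were Lcp1 (r = 0.996), Snapc1 (0.995) and Arhgap4 (0.994), with 365 genes above 0.95. For Tgfbr1 they were Bcl2 (r = 0.979), Timm23 (0.978) and Snrpd3 (0.976), with 37 genes above 0.95. Bcl2, which encodes a survival protein, read 9.54, 9.87 on the wild-type Th1 arrays, 9.75, 9.71 on their Tet2-deficient counterparts, 10.7, 10.5 on the wild-type Th17 arrays, and 10.3, 10.2 on the Tet2-deficient Th17 arrays. The Tet2-deficient Th17 arrays lay in between, an order that follows from choosing genes for likeness to Tgfbr1 on these same arrays. For Tgfb3 they were Sorl1 (r = 0.985), Orai2 (0.981) and Akna (0.980), with 47 genes above 0.95.

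Around these genes, 48 other pathway genes were measured, and most did not pass. In wild-type cells 9 of the 48 were called higher and 2 lower in Th17 cells, 22.9% against 8.4% of all genes, with a median of 0.06. In Tet2-deficient cells 5 were called higher and 2 lower, 14.6% against 10.1% of all genes, with a median of 0.05. Among the 14 ligand and activation genes, Itgav and Itgb8, which encode the chains of an integrin that releases active TGF-beta from its latent form, were both lower in Th17 cells. Itgav fell by 1.05 ± 0.17 SE in wild-type (adjusted p = 0.0021, limma) and by 0.84 ± 0.17 in Tet2-deficient cells (adjusted p = 0.00717, limma). Itgb8 read 7.50 and 7.78 in wild-type Th1 against 6.98 and 6.66 in wild-type Th17 cells, with no overlap, and fell by 0.82 ± 0.15 SE (adjusted p = 0.00605, limma); in Tet2-deficient cells it fell by 0.98 ± 0.15 (adjusted p = 0.00161, limma). Lrrc32, which encodes GARP, a cell-surface anchor of latent TGF-beta known from regulatory T cells, was 1.76-fold higher in wild-type Th17 cells (adjusted p = 0.0128, limma) and did not pass in Tet2-deficient cells (0.56 ± 0.17, adjusted p = 0.0633). Inhba, the activin A subunit gene of the same superfamily, was 2.03-fold and 2.49-fold higher in Th17 cells (adjusted p = 0.00174 and 0.000237, limma).

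Of the 9 other receptors, the coreceptor gene Eng was 1.86-fold (adjusted p = 0.000603, limma) and 1.64-fold higher (0.00242) in Th17 cells of wild-type and Tet2-deficient mice, and the activin receptor gene Acvr2a 1.80-fold (0.00525) and 1.69-fold (0.00882). Acvr1b was called only in wild-type cells (0.55 ± 0.12 SE, adjusted p = 0.0136, limma; 0.15 ± 0.12 in Tet2-deficient cells) and Bmpr1a only in Tet2-deficient cells (0.55 ± 0.13, adjusted p = 0.0177; 0.39 ± 0.13 in wild-type cells), and the differences between genotypes did not pass for any gene. None of the 5 other Smads passed, and Smad4, the partner of Smad2 and Smad3, differed by 0.18 ± 0.13 and 0.25 ± 0.13. Of 20 regulators, Hipk2, a nuclear kinase, was the largest, 4.35-fold higher in wild-type (2.12 ± 0.16, adjusted p = 6.88e-06, limma) and 3.74-fold in Tet2-deficient Th17 cells (1.90 ± 0.16, adjusted p = 1.66e-05, limma). Smurf1 and Smurf2, the ubiquitin ligases that act with Smad7, were 1.34-fold and 1.41-fold higher in wild-type Th17 cells (adjusted p = 0.0435 and 0.0312, limma), as was the receptor-associated Tgfbrap1 (1.45-fold, 0.0265), and none of the 3 passed in Tet2-deficient cells.

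**Figure D3:**
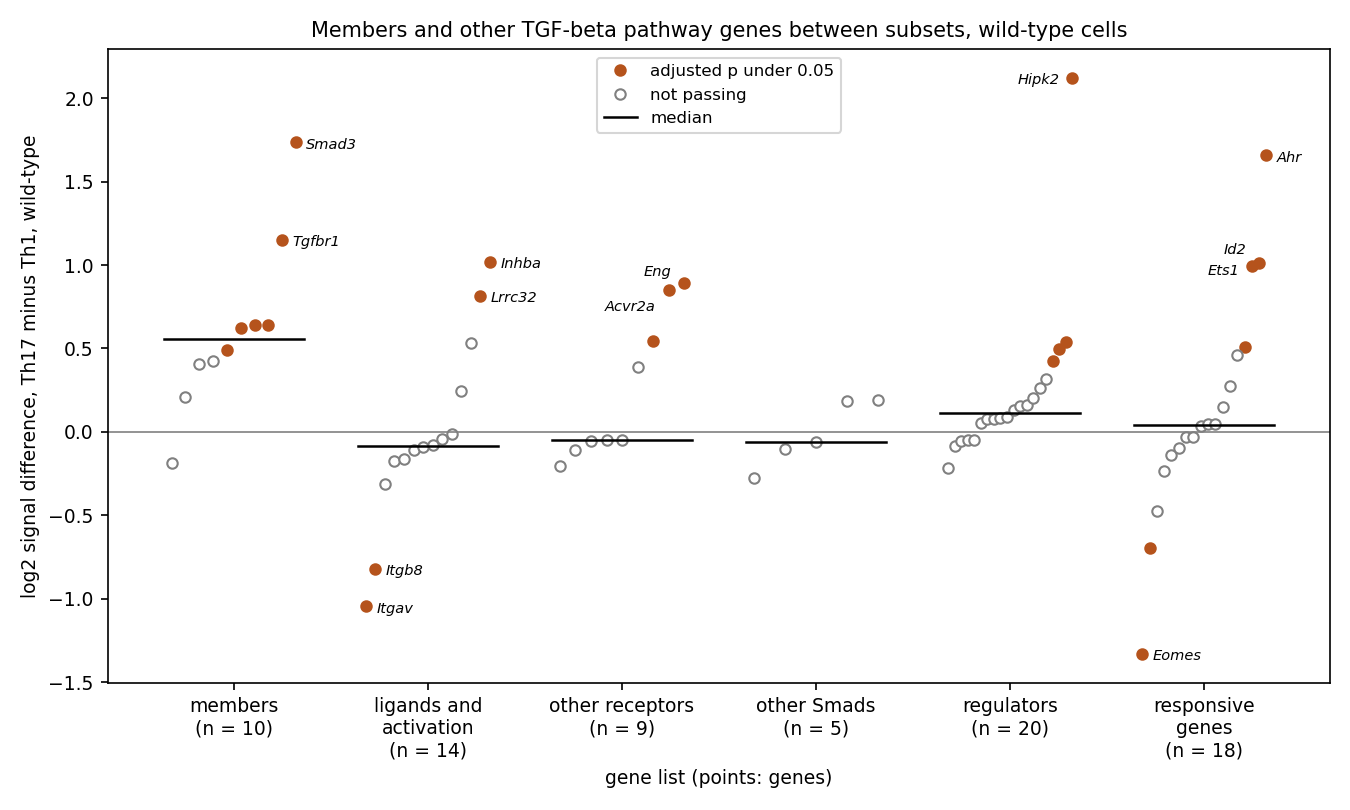
Log2 signal difference, Th17 minus Th1 in wild-type cells (y axis), of the 10 genes and of the other pathway genes by role, with 1 point per gene, filled where the adjusted p was under 0.05, and a line at each list's median. The median is 0.56 for the 10 genes and lies between -0.08 and 0.11 for the other lists.

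Of 18 measured genes known to respond to TGF-beta in some cell type, 4 were called higher and 2 lower in Th17 cells of each genotype, 33.3% against 8.4% (wild-type) and 10.1% (Tet2-deficient) of all genes, with medians of 0.04 and -0.02. Higher were Ahr, the aryl hydrocarbon receptor (1.66 ± 0.15 SE in wild-type and 1.85 ± 0.15 in Tet2-deficient cells), the inhibitor of DNA binding Id2 (1.01 ± 0.18 and 1.21 ± 0.18), the transcription factor Ets1 (0.99 ± 0.13 and 0.68 ± 0.13) and Klf10 (0.51 ± 0.12 and 0.44 ± 0.12), with adjusted p from 1.28e-05 to 0.0424. Lower were the transcription factor Eomes (-1.33 ± 0.13 and -1.40 ± 0.13) and Gadd45b (-0.69 ± 0.12 and -0.81 ± 0.12), with adjusted p from 3.78e-05 to 0.00446 (limma).

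With all probe sets tested in place of genes, only Tgfbr1 and Smad3 stayed called in wild-type and Tgfbr2 and Smad3 in Tet2-deficient cells. Once the female share was in the fit, 4 members stayed called in wild-type (Tgfb3, Tgfbr1, Tgfbr2 and Smad3) and 3 in Tet2-deficient cells (Tgfb3, Tgfbr2 and Smad3). The 5 regulatory T cell markers summed to 9.65 to 9.89 in Th1, 10.3 to 10.4 in wild-type Th17 and 9.94 to 10.04 in Tet2-deficient Th17 cells. Their sum followed Gpr83 (higher by 1.51 and 0.77 in Th17 cells, both called) and Lrrc32, which is also among the pathway genes above, while Foxp3 lay between 6.40 and 6.73 on every array and Ikzf2 under the median gene. The 5 stromal markers summed to 8.76 to 8.87, 8.99 to 9.02 and 9.41 to 9.43 in the same groups. That sum followed Lum (higher by 1.79 and 2.86 in Th17 cells, both called), with Dcn called in Tet2-deficient cells alone (0.99); the other 3 had lower means in Th17 cells, and the medians of the list were -0.08 and -0.03. The 5 myeloid and 3 measured B cell markers, and 2 of the 4 platelet markers (Pf4 and Ppbp), lay under the median gene on every array. The other platelet markers, Itga2b and Gp9, lay near it (percentiles 45.5 to 53.3 and 47.1 to 53.6). Natural killer markers summed to 6.95 to 7.05 in Th1, 7.16 to 7.22 in wild-type Th17 and 7.78 to 8.39 in Tet2-deficient Th17 cells. Of these 4 markers, 1 was called higher in Tet2-deficient Th17 cells (largest difference 1.73) and none in wild-type cells. The 2 CD8 T cell markers summed to 7.30 to 7.55 in Th1 and 7.19 to 7.30 in Th17 cells, with none called. The part of the regulatory T cell, stromal and natural killer markers in the subset differences was not tested.

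No member passed a test of Tet2 deficiency. In Th1 cells 0 of the 10 passed against wild-type Th1 cells, where 0.00502% of all genes were called, and in Th17 cells 0 of 10 passed, where 0% of all genes were called (limma). At an unadjusted p under 0.05 stood 1 member in each subset, Smad3 in Th1 and Tgfbr1 in Th17 cells, as did 6.05% and 4.13% of all genes. The mean effect over both subsets and the difference between them called 0 members and 0% of all genes, with 2 members (Tgfb3 and Smad3) and 1 member (Tgfbr1) at an unadjusted p under 0.05, against 5.48% and 4.48% of all genes. The comparisons share no arrays between the subsets, so the values for Th1 and Th17 cells below come from separate samples.

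In Tet2-deficient Th1 cells 9 of the 10 genes had a mean above wild-type, with a median of 0.12 against 0.01 for all genes, and for 5 (Tgfb1, Tgfb3, Tgfbr1, Smad2 and Smad3) both Tet2-deficient arrays lay above both wild-type arrays, which 19.6% of all genes showed (13.7% lay lower). Smad3 had the largest difference, 0.41 ± 0.15 SE, a 1.32-fold difference (95% interval 0.08 to 0.73, unadjusted p = 0.0177, adjusted p = 0.797, limma). Its lowest Tet2-deficient array (8.59) was above its highest wild-type array (8.45), and the difference ranged from 0.25 without wild-type Th1 replicate 1 to 0.56 without wild-type Th1 replicate 2. Tgfb3 (0.24 ± 0.17), Tgfbr1 (0.22 ± 0.13), Tgfb1 (0.15 ± 0.13) and Smad7 (0.15 ± 0.16) followed, and Tgfbr3 (-0.13 ± 0.15) alone was below 0, none passing. Tgfbr2 (0.01 ± 0.14, 95% interval -0.29 to 0.31), Smad2 (0.06 ± 0.11), Skil (0.06 ± 0.15) and Ski (0.09 ± 0.14) did not pass either. The 95% interval spanned 0 for every member but Smad3.

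In Tet2-deficient Th17 cells Tgfbr1 was the member farthest from 0. Its signal of 8.22 and 8.26 lay below the 8.87 and 8.64 of wild-type Th17 cells, a difference of -0.52 ± 0.13 SE or 1.43-fold (95% interval -0.81 to -0.23, unadjusted p = 0.00205, rank 49 of 19938 genes, adjusted p = 0.743, limma), which did not pass. With an array left out the difference stayed between -0.63 and -0.40, and once the female share was in the fit it was -0.49 (adjusted p = 0.9998). In Th1 cells the Tgfbr1 difference had the other sign, with a range from 0.066 without wild-type Th1 replicate 1 to 0.37 without wild-type Th1 replicate 2, and the difference of the effects, Th17 minus Th1, was -0.74 ± 0.19 (95% interval -1.14 to -0.33, unadjusted p = 0.00194, rank 39 of 19938, adjusted p = 0.98), which did not pass either. Smad2 also lay lower on both Tet2-deficient Th17 arrays (-0.16 ± 0.11, 95% interval -0.40 to 0.09) without passing. Of all genes, 14.1% lay lower without overlap in this comparison.

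Other members of the pathway had positive values in Tet2-deficient Th17 cells that did not pass: Tgfb3 0.35 ± 0.17 SE (95% interval -0.03 to 0.73), Smad7 0.32 ± 0.16 (-0.02 to 0.66), Tgfbr2 0.25 ± 0.14 (-0.05 to 0.54), Smad3 0.18 ± 0.15 (-0.14 to 0.50), Ski 0.13 ± 0.14 and Skil 0.05 ± 0.15, each with an adjusted p of 0.99996 (limma). Smad7 alone of these had both Tet2-deficient arrays (8.60 and 8.33) above both wild-type arrays (8.10 and 8.18), as 18.8% of all genes did. Tgfb1 (-0.08 ± 0.13) and Tgfbr3 (-0.02 ± 0.15) lay near 0. The Tgfb3 value was 0.036 without Tet2-deficient Th17 replicate 1 and 0.66 without replicate 2.

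**Figure D4:**
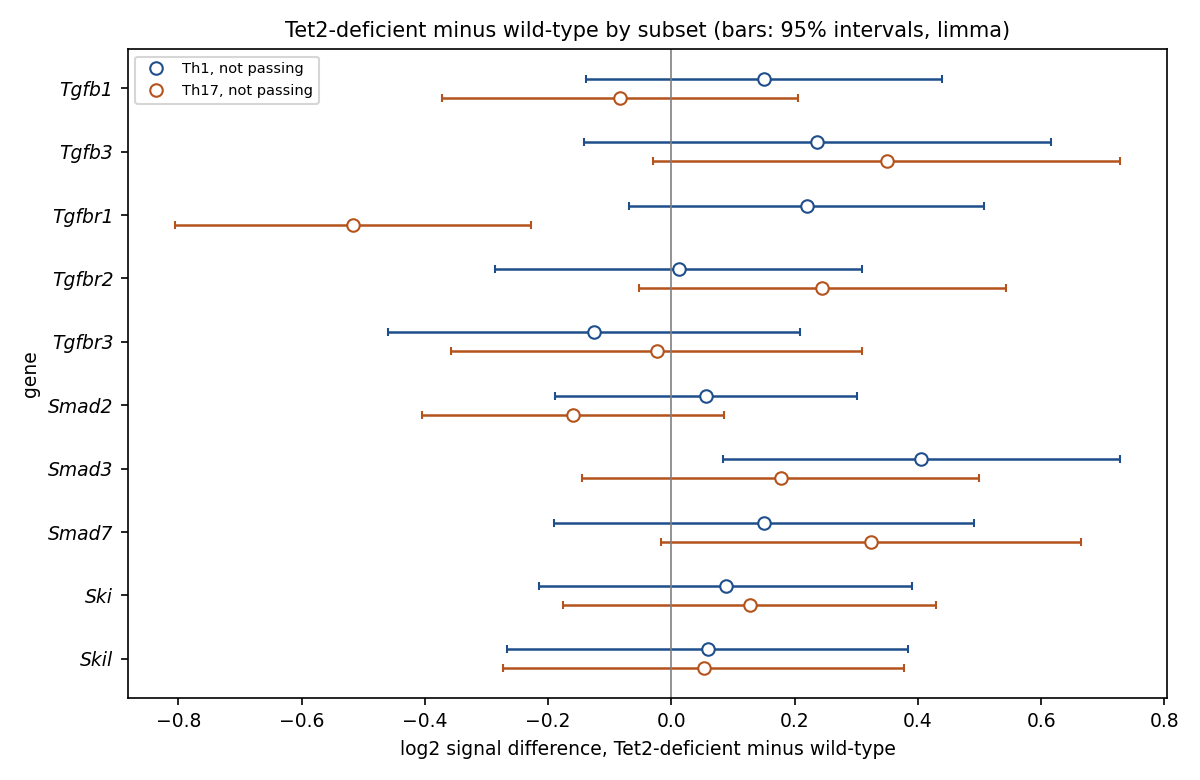
Log2 signal difference, Tet2-deficient minus wild-type (x axis), of each gene in Th1 (blue) and Th17 cells (orange), with 95% intervals from limma; open points did not pass an adjusted p under 0.05. Tgfbr1 in Th17 cells (-0.52) and Smad3 in Th1 cells (0.41) have the intervals that exclude 0, before adjustment.

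Among the other pathway genes 0 of 48 passed in either subset, with medians of 0.02 in Th1 and -0.02 in Th17 cells, and among the 18 responsive genes 0 passed, with medians of 0.04 and -0.02 (limma). At an unadjusted p under 0.05 stood 3 of the 48 (6.25%) and 1 of the 18 (5.56%) in each subset, near the 6.05% and 4.13% of all genes. For the mean effect over both subsets 5 of the 48 (10.4%) and 3 of the 18 (16.7%) did, against 5.48% of all genes. None of these passed after adjustment. No marker of another cell type passed for Tet2 deficiency in Th17 cells. The natural killer, regulatory T cell and stromal sums differed between genotypes there, each through 1 or 2 genes. The myeloid sum also lay higher on the Tet2-deficient Th17 arrays (7.71 to 7.72 against 7.58 to 7.62), with all 5 genes above 0 and under the median gene. The platelet sum lay lower on them (7.90 to 7.93 against 7.98 to 7.99). The 4 natural killer markers summed to 7.16 to 7.22 on the wild-type Th17 arrays and 7.78 to 8.39 on the Tet2-deficient ones, through Klrd1 (6.30 and 6.51 against 7.25 and 8.07, adjusted p = 0.183, limma), with Ncr1, Klrb1c and Klre1 under the median gene on every array. The regulatory T cell sum differed through Gpr83 (-0.97, adjusted p = 0.0582, limma; median of the list -0.02) and the stromal sum through Lum (1.02, adjusted p = 0.0582) and Dcn (0.59, adjusted p = 0.743; median of the list 0.07). Their part in the Tgfbr1 and Smad7 values was not tested.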

How the data were processed

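RNA of 8 samples (2 per group) was isolated with Trizol, fragmented and biotin-labelled, per the labels' protocols. The deposited values are log2 probe-set signals; GCOS, RMA and Affymetrix Expression Console are named in the submitters' processing notes, with versions, order and options not given in the sources used here. RMA normalizes arrays to each other, so no scaling was added. Of 35556 probe sets, 21789 carry a single symbol (annotation of the platform), and the probe set with the highest mean per gene left 19938 genes, with no filter. The test was limma 3.58.1 (R 4.3.3) on 4 group means, eBayes with a trend, 6 contrasts, two-sided, with Benjamini-Hochberg adjustment; values after ± are standard errors unless SD is written, and p-values measure the spread between arrays that the titles call biological replicates. The method was tested on simulated data. The members, lists and naming rule (all members; called list genes, at most 4 per list and contrast by size; the 3 most correlated named genes for the 3 members with the widest range) were chosen with earlier results of these data known; Klf10 and Smad4 were added after their values were seen. The alternatives were a replicate block, other filters, probe-set rules, scalings and variance models, the female share (from linear Xist signal) as a covariate, and each array left out. The titles do not say whether replicate numbers pair samples across groups. Deviations of same-numbered arrays correlated at -0.19 to 0.06 between groups, which with 2 arrays per group cannot exclude pairing. The number of arrays limits the precision.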

Additional observations from a re-analysis of the deposited data

Results flagged for a closer look

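Tgfbr1 and Smad2 stood out because both Tet2-deficient arrays lay above both wild-type arrays in Th1 cells and below both in Th17 cells, which 2.2% of all genes showed in that direction (439 of 19938) and 4.96% in either direction. The difference of the effects, Th17 minus Th1, was tested and was -0.74 ± 0.19 SE for Tgfbr1 (adjusted p = 0.98, limma) and -0.22 ± 0.16 SE for Smad2 (adjusted p = 0.999, limma), so neither passed.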

How the results depend on the processing

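Across the alternatives, the 358 recomputed subset differences of the 10 genes kept their sign. Of these, 310 kept their side of the threshold, 39 calls were lost and 9 gained. Of 696 Tet2 differences, 663 kept their sign and none passed. A sign could change only with rescaling, with the female share in the fit or with an array of the contrast left out. The other alternatives return the same difference and vary only the test, so many of the kept signs were fixed in advance. Members called between subsets numbered 6 in wild-type and 5 in Tet2-deficient cells, 2 and 2 with all probe sets tested, and 3 in Tet2-deficient cells with the female share as a covariate; with an array left out they ranged from 2 to 6 in each genotype. With the replicate block 6 and 5 members were called, and it changed no member's call; all genes called went from 1675 to 1398 in wild-type and from 2015 to 1767 in Tet2-deficient cells. Counts over all genes that moved most were 599 and 1001 with all probe sets tested, 911 and 1133 with a fold of at least 1.5, 1101 in a fit on the wild-type arrays alone and 726 in Tet2-deficient cells with the female share; with an array left out they fell as low as 663 and 801. Values that changed sign were small and uncalled. Tgfbr2 in Th1 cells was -0.010 with quantile normalization and -0.0094 with centring, and with an array left out ranged from -0.036 to 0.059. The difference of effects of Skil was 0.0054 with centring and 0.13 with the female share. With an array left out, Th1 differences ranged from -0.27 to 0.018 for Tgfbr3, -0.077 to 0.38 for Smad7 and -0.10 to 0.22 for Skil. The Th17 differences ranged from -0.22 to 0.051 for Tgfb1, -0.22 to 0.17 for Tgfbr3, -0.0089 to 0.26 for Ski and -0.12 to 0.23 for Skil. Mean effects ranged from -0.033 to 0.10 for Tgfb1, -0.17 to 0.021 for Tgfbr3 and -0.032 to 0.14 for Skil. Differences of effects ranged from -0.20 to 0.43 for Tgfb3, -0.089 to 0.29 for Tgfbr3, -0.054 to 0.40 for Smad7, -0.097 to 0.17 for Ski and -0.18 to 0.17 for Skil. The causes were not tested.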
